A study of Mus musculus with 16 samples.

Results

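Reporter-dim Sca1+ cells of the mouse colon were compared with Sca1- reporter-negative cells sorted from the same tissue. The comparison used 8 of the 16 arrays of the series: 4 labelled as Sca1+Gli1ZsGreendim and 4 labelled as Sca1-Gli1ZsGreen-, each with animals numbered 1 to 4. All 17097 genes that had a probe set with 1 gene symbol were tested. Both populations carried the genotype Gli1CreERT2-ZsGreen on a C57BL/6 background, in which a tamoxifen-dependent Cre made under Gli1 switches on the green reporter ZsGreen. Each animal had received 1 mg of tamoxifen on 5 days in a row, and colons were taken on day 6, so neither population was free of tamoxifen or of the Gli1CreERT2 allele. No source used here gives the ages of the animals. Both sorts kept colon cells that were Epcam-, CD45- and CD31- and carried gp38, the surface protein podoplanin made by Pdpn. Sca1 and the reporter differed together between the populations, so their parts in a difference cannot be told apart in this comparison. The labels give the number of the mouse but not how many cells were sorted, and 2 ng of RNA from each sample was amplified and hybridised to 1 Affymetrix array.

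Colon stroma holds several kinds of mesenchymal cell. Hedgehog proteins are secreted by the epithelium and reach the mesenchyme, where the receptor Ptch1 releases Smo and the transcription factors Gli1, Gli2 and Gli3 act on target genes. Fibroblasts marked by CD34 and Sca1 lie around vessels and deeper in the wall and are known for matrix and trophic factors, whereas fibroblasts rich in PDGFRA lie under the epithelium and make BMP ligands. Interstitial cells of Cajal, which carry the receptor Kit, pace gut contraction, and pericytes wrap small vessels. Because the ZsGreen label is permanent once Cre has acted, reporter brightness need not follow Gli1 activity on the day of sorting.

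Signals are array units without a length scale, so levels are compared between samples for a gene and not between genes. Where 4 signals are listed they are in the order of mice 1 to 4. A gene is called when the adjusted p of limma, over all 17097 genes, was under 0.05 for the log2 difference between the means of 4 arrays per population. Differences are reporter-dim minus Sca1-, given as log2 with the standard error (SE) of the fit, and signals include array background, which makes the differences of dim genes too small. Array medians were 672 to 686 in reporter-dim and 662 to 685 in Sca1- cells. The highest nonspecific control read 292 to 396 and 329 to 417, and 64.7% to 74.5% and 64.8% to 70.7% of probe sets exceeded that control. The ratio of 3' to 5' Gapdh control signals was 1.02 ± 0.014 (SD, n = 4) in reporter-dim and 0.917 ± 0.017 in Sca1- cells and did not overlap, whereas that of Actb was 1.15 ± 0.07 and 1.11 ± 0.05. The part of this ratio in the differences was not tested.

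The genes behind the sort were read first. Gli1 had signals of 2705, 2183, 2442 and 1961 in reporter-dim cells and of 1384, 865, 749 and 684 in Sca1- cells. All reporter-dim arrays lay above all Sca1- arrays, with a log2 difference of 1.38 ± 0.21 (adjusted p = 0.000577). Pdpn, used to gate both populations, was also higher in reporter-dim cells, with 7234, 7063, 5626 and 6169 against 3878, 1674, 1590 and 1643 (log2 1.68 ± 0.26, adjusted p = 0.000682). Ly6a, which encodes Sca1, is not analysed here because no probe set carried its name alone. Ly6c1, another member of the Ly6 family given here outside the rule for naming genes, read 14042, 11179, 12774 and 10113 against 7226, 4309, 4449 and 2082 (log2 1.53 ± 0.25, adjusted p = 0.00117).

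The genes gated out were still measured in both populations. Epcam read 6249, 7773, 13478 and 13623 in reporter-dim and 10080, 18924, 21786 and 18565 in Sca1- cells. These ranges overlapped, and the log2 difference of -0.78 ± 0.39 did not pass the test (adjusted p = 0.204, and 0.028 with mouse as a block). Ptprc, which encodes CD45, read 338 to 655 and 679 to 1166 (log2 -0.93 ± 0.31, adjusted p = 0.0622, and 0.027 with the block). Pecam1, which encodes CD31, read 1302 to 3345 and 2570 to 7099 (log2 -0.92 ± 0.32, adjusted p = 0.0699). The mean log2 signal over the 19 measured epithelial markers was 12.76, 12.88, 13.80 and 13.48 in reporter-dim and 13.29, 14.10, 14.33 and 14.03 in Sca1- cells, so 3 of the Sca1- arrays lay above every reporter-dim array. The part of epithelial RNA in the differences was not tested. Counts are also given from a fit with this mean as a covariate.

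The sex-linked genes showed that labels and arrays did not match for every animal. Xist, transcribed in female cells, read 468, 424, 18450 and 23486 in reporter-dim and 671, 19209, 22753 and 24417 in Sca1- cells. The Y-linked gene Eif2s3y read 3030, 3095, 161 and 146 against 3035, 197, 146 and 153. Mouse 1 was thus male and mice 3 and 4 were female on both arrays, whereas the arrays numbered mouse 2 came from a male in reporter-dim and from a female in Sca1- cells. Among the other arrays numbered 2, that of Sca1+ reporter-high cells was male and that of Sca1+ reporter-negative cells female. Counts of mice and fits with mouse as a block therefore rest on the labels, and reporter-dim holds 2 male and 2 female arrays against 1 and 3. The Sca1- array of mouse 1, the male one of its population, also stood apart: its correlation with the other 3 was 0.965 to 0.974, against up to 0.989 among those. The Sca1+ reporter-negative array of mouse 1 was also the male one of its population. It correlated with the other 3 by 0.974 to 0.983, against up to 0.992 among those. Counts of lists without the Sca1- array of mouse 1 are given together before the Sca1+ populations are compared, and beside some results.

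Of the 17097 genes, 2368 were called (13.9%). Higher calls in reporter-dim cells numbered 1361 (7.96%) and lower calls 1007 (5.89%), and 561 calls were of 2-fold or more, 372 higher and 189 lower. The median difference over all genes was -0.02. In 2311 of the calls the 2 arrays of each mouse number differed in the same direction in all 4 mice. The 4 arrays of one population all lay above those of the other for 2286 genes (13.4%), of which 1649 were called. With mouse as a block, 3769 genes were called (22.0%), 48.7% of them higher in reporter-dim cells, against 57.5% without it. Without mouse 2, 614 were called and without mouse 4, 789. Leaving out the Sca1- array of mouse 1 gave 4025. With the epithelial mean as a covariate 1395 were called. When arrays were scaled to their hybridisation controls, the median of all genes moved to 0.12 and 86.4% of 2250 calls were higher.

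**Figure D1:**
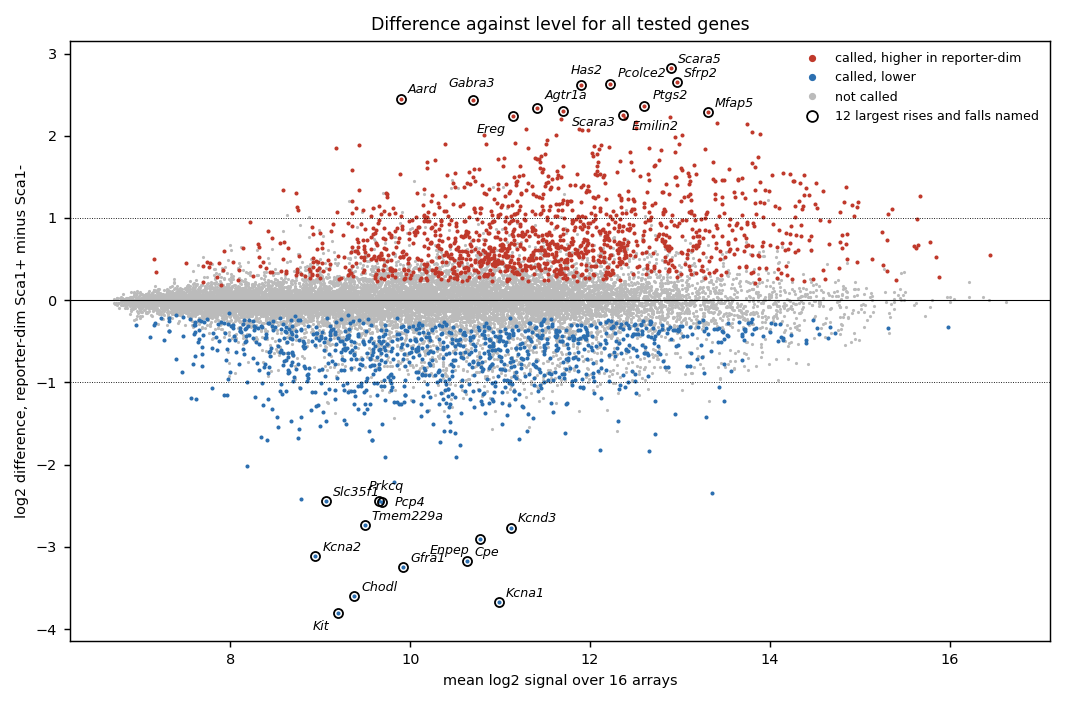
Log2 difference between reporter-dim Sca1+ and Sca1- cells (y axis) against the mean log2 signal over 16 arrays (x axis) for each of 17097 genes, with the 12 largest rises and the 12 largest falls circled and dotted lines at 2-fold. The falls reach -3.81 for Kit and the rises 2.82 for Scara5.

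The 12 genes most above the Sca1- level in reporter-dim cells were of varied kinds. Scara5, a scavenger receptor that takes up ferritin, read 13881, 15559, 11492 and 10158 against 3385, 1308, 2348 and 965 (log2 2.82 ± 0.29, adjusted p = 3.9e-05). Every reporter-dim array was at least 10158 and no Sca1- array exceeded 3385. Sfrp2, a secreted Wnt modulator, read 14840, 19078, 11020 and 13914 against 5347, 2350, 2377 and 927 (log2 2.65 ± 0.36, adjusted p = 0.000327). Pcolce2, which enhances procollagen processing, read 7450, 8670, 7715 and 6475 against 1826, 1085, 1152 and 975 (log2 2.63 ± 0.18, adjusted p = 6.99e-07). For all 3 of these genes the Sca1- array of mouse 1 was the highest of its population and still below every reporter-dim array.

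Has2, which makes hyaluronan, read 6349, 8354, 5509 and 7336 against 2521, 799, 1404 and 535 (log2 2.62 ± 0.38). Aard read 1552 to 2145 against 238 to 543 (2.45 ± 0.30), and Gabra3, a GABA receptor subunit, 2067 to 4214 against 347 to 1357 (2.43 ± 0.36). Agtr1a, a receptor for angiotensin II, read 3169 to 7250 against 631 to 2121 (2.34 ± 0.35). Populations did not overlap for these 4 genes, as was so for 1649 of the 2368 called genes. Aard was at array background on 3 of the 4 Sca1- arrays, and adjusted p ran from 0.000138 for Aard to 0.000582 for Agtr1a. Scara3, another scavenger receptor, read 4228 to 5423 against 759 to 1678 (2.30 ± 0.19, adjusted p = 7.72e-06). The microfibril protein gene Mfap5 read 11466 to 21294 against 1648 to 8447 (2.28 ± 0.35), and Emilin2, an elastic-fibre-associated glycoprotein, 6623 to 10259 against 870 to 2913 (2.25 ± 0.26).

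The other 2 of the 12 largest rises were less even. Ptgs2, the inducible cyclooxygenase of prostaglandin synthesis, read 9591, 10233, 5956 and 17714 against 6155, 1954, 1377 and 897 (log2 2.36 ± 0.52, adjusted p = 0.00742). Its populations overlapped, because the Sca1- array of mouse 1 exceeded the lowest reporter-dim array. Ereg, an EGF receptor ligand, read 3198, 4073, 3152 and 4189 against 1917, 606, 879 and 343 (2.23 ± 0.48, adjusted p = 0.00701). Without mouse 2 the adjusted p was 0.0906 for Ptgs2 and 0.0921 for Ereg, whereas it stayed under 0.05 for the other 10 rises.

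The largest falls were larger than the largest rises. Kit, the receptor of stem cell factor, read 196, 262, 284 and 323 in reporter-dim and 4305, 3296, 2433 and 5249 in Sca1- cells (log2 -3.81 ± 0.23, adjusted p = 1.85e-07). On 3 of the 4 reporter-dim arrays it was not above the highest nonspecific control. The voltage-gated potassium channel gene Kcna1 read 1128, 993, 998 and 1108 against 28057, 8164, 12667 and 11275 (-3.67 ± 0.30, adjusted p = 5.28e-06). Kcna2, a related channel, read 302, 303, 352 and 262 against 6044, 1834, 1894 and 2273 (-3.12 ± 0.28), and was at array background on 3 reporter-dim arrays. Kcnd3, a channel of another subfamily, read 1059 to 1461 against 4524 to 20453 (-2.77 ± 0.41, adjusted p = 0.000583). For these channels the 4 reporter-dim signals were nearly level and the spread lay in the Sca1- arrays, with mouse 1 the highest.

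Chodl, a C-type lectin domain protein, read 271 to 367 against 2256 to 6129 (log2 -3.60 ± 0.26). Gfra1, a GDNF receptor, read 419, 434, 445 and 751 against 8923, 2996, 3813 and 4881 (-3.25 ± 0.44, adjusted p = 0.000294). Cpe, which processes peptide hormones, read 440 to 1018 against 3774 to 9675 (-3.18 ± 0.28). None of these overlapped between populations, as was so for 1649 of the 2368 called genes. Enpep, an aminopeptidase of the angiotensin pathway, read 1152, 1110, 853 and 630 against 7719, 6331, 4572 and 9698 (-2.91 ± 0.25, adjusted p = 1.06e-05). Tmem229a read 395 to 468 against 2117 to 4185 (-2.74 ± 0.16), Pcp4, a calmodulin regulator, 434 to 563 against 1752 to 7516 (-2.46 ± 0.32), and Slc35f1 304 to 406 against 1449 to 4125 (-2.44 ± 0.26). Prkcq, a protein kinase C, read 488 to 545 against 1948 to 3646 (-2.44 ± 0.14, adjusted p = 1.67e-07). All 12 falls had an adjusted p under 0.05 in each of the 24 alternatives that give a difference in signal, those without mouse 2 included.

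**Figure D2:**
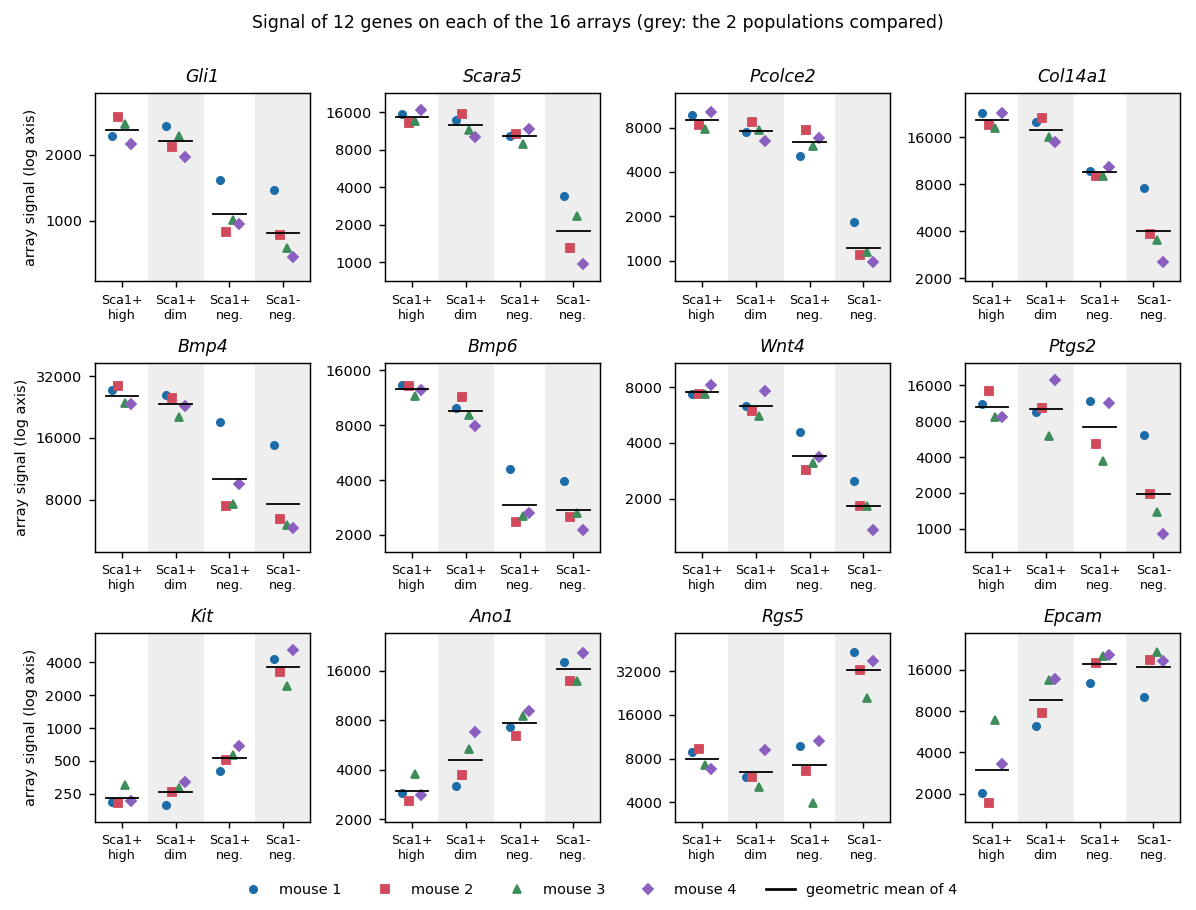
Array signal (y axis, log scale) of 12 genes in the 4 sorted populations, with 1 point per mouse and a bar at the geometric mean of 4 arrays. Grey bands mark the compared populations: Scara5 is at 10158 or more in reporter-dim and 3385 or less in Sca1- cells, and Kit at 323 or less and 2433 or more.

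Adventitial CD34+ fibroblasts also carry Sca1, on which the populations were sorted. Among known markers of these cells a larger share was called higher than the 7.96% of all genes. Of 24 measured, 16 were called higher and 0 lower, with a median difference of 1.32 against -0.02 over all genes, and 12 and 15 were called higher without mouse 2 and without mouse 4. Beside Scara5 and Pcolce2 the largest were Gfpt2, the first enzyme of hexosamine synthesis (10194 to 11742 against 1449 to 3933, log2 2.23 ± 0.22), and Clec3b, the plasminogen-binding tetranectin (5758 to 6981 against 1048 to 2311, 2.07 ± 0.19). Cd34 itself, given outside the rule, read 24953, 29303, 20400 and 18843 against 11794, 4260, 5001 and 3853 (2.05 ± 0.27, adjusted p = 0.000259). Its lowest reporter-dim array was above its highest Sca1- array. Not all markers of the list were higher: Pi16 read 594 to 852 against 468 to 625 (0.33 ± 0.14, adjusted p = 0.148), and Dpp4, which epithelium also makes, 714 to 1638 against 953 to 2606 (-0.91 ± 0.37, adjusted p = 0.121). With the epithelial mean as a covariate 16 were called higher. This list, like the others, was chosen with earlier results of these data known, so its share is a description.

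Markers of the other fibroblast kinds gave higher calls as well. Among lamina propria fibroblast markers 11 of 16 were called higher and 1 lower, with a median of 1.06 (6 and 1 without mouse 2, 4 and 1 without mouse 4). Among 20 PDGFRA-high subepithelial markers 11 were called higher and 0 lower, with a median of 0.86 (4 higher without mouse 2 and 4 without mouse 4). Edil3, an integrin ligand of the matrix, read 2163 to 3400 against 676 to 1618 (log2 1.59 ± 0.25). Pdgfra, the defining gene of that list and given outside the rule, did not pass, with 6633, 5035, 5581 and 6649 against 7505, 2864, 3065 and 6244 (0.40 ± 0.30, adjusted p = 0.416). The Sca1- array of mouse 1 was thus above every reporter-dim array, and that of mouse 4 lay inside the reporter-dim range.

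Of 15 genes of fibroblast identity, 11 were called higher and 0 lower, with a median of 0.66 (4 and 6 higher without mouse 2 and mouse 4). Fap, a membrane serine protease of activated fibroblasts, read 4908, 6018, 3943 and 4095 against 2161, 811, 1027 and 1353 (log2 1.90 ± 0.29, adjusted p = 0.000688). S100a4 read 1931 to 4639 against 852 to 1538 (1.42 ± 0.30). Col3a1, a fibrillar collagen gene given outside the rule, was bright on every array of both populations, with 65219 to 72820 against 60579 to 76103 (0.03 ± 0.08, adjusted p = 0.822). The type I collagen genes, chosen after their values were seen, were called higher, Col1a1 by 0.66 (adjusted p = 0.0094) and Col1a2 by 1.40 (adjusted p = 0.0167).

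Genes of fibrillar collagens and elastic fibres formed the list with the largest share of calls among lists of over 10 genes, 20 of 24 higher and 0 lower with a median of 1.08. Without mouse 2 the count was 6, without mouse 4 it was 9, and with the epithelial covariate 15. Col14a1, a collagen that sits on fibrils, read 19963, 21067, 16030 and 14960 against 7526, 3819, 3517 and 2561 (log2 2.15 ± 0.23, adjusted p = 5.88e-05). Efemp1, a fibulin, read 19706 to 24673 against 3233 to 11677 (2.02 ± 0.28), and Lox, which crosslinks collagen and elastin, 5092 to 7899 against 1352 to 4867 (1.69 ± 0.32). Eln, which encodes elastin and is also in the subepithelial list, read 33111, 36691, 27304 and 21484 against 19228, 8306, 9660 and 8236 (1.45 ± 0.24, adjusted p = 0.00142). In each of these genes the Sca1- array of mouse 1 was the highest of its population and below every reporter-dim array.

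Basement membrane genes were called higher in 11 of 18 and lower in 1, with a median of 0.67 (2 higher without mouse 2, 4 higher and 1 lower without mouse 4, and 6 higher and 1 lower with the epithelial covariate). Col4a6 read 4063 to 5109 against 1030 to 3303 (log2 1.47 ± 0.40), Lama2, the laminin chain of mesenchymal basement membranes, 17985 to 26196 against 6275 to 14386 (1.44 ± 0.27), Col15a1 25079 to 33904 against 8441 to 19496 (1.43 ± 0.23) and Lamb1 26208 to 34349 against 8013 to 22525 (1.28 ± 0.26). For Col4a6 the adjusted p was 0.0246, and 0.132 without mouse 2. The 1 gene called lower, Lama3, encodes a laminin chain of epithelial basement membranes and was chosen here after its value was seen (log2 -1.01).

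Of 25 proteoglycan and glycoprotein genes, 15 were called higher and 1 lower, with a median of 0.97 (7 and 1 without mouse 2, 9 and 0 without mouse 4). Ecm1 read 24751, 25775, 21655 and 22272 against 10452, 4360, 5407 and 3317 (log2 2.14 ± 0.26, adjusted p = 0.000138). The large proteoglycan gene Vcan read 7515 to 13990 against 1903 to 6877 (1.83 ± 0.34), and Thbs3, a thrombospondin, 3503 to 5093 against 964 to 2425 (1.68 ± 0.25). Of 22 matrix proteases and inhibitors, 16 were called higher and 0 lower, with a median of 0.89 (8 and 9 higher without mouse 2 and mouse 4). The aggrecan-cleaving proteases Adamts5 (3002 to 4552 against 555 to 2039, 1.72 ± 0.30) and Adamts4 (12841 to 21596 against 3654 to 13488, 1.46 ± 0.30), Serpinf1 (7614 to 10243 against 2807 to 5826, 1.41 ± 0.21) and Mmp23 (3738 to 5958 against 1398 to 2880, 1.40 ± 0.19) led that list. Of these 4, Adamts4 overlapped between populations, through the Sca1- array of mouse 1.

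**Figure D3:**
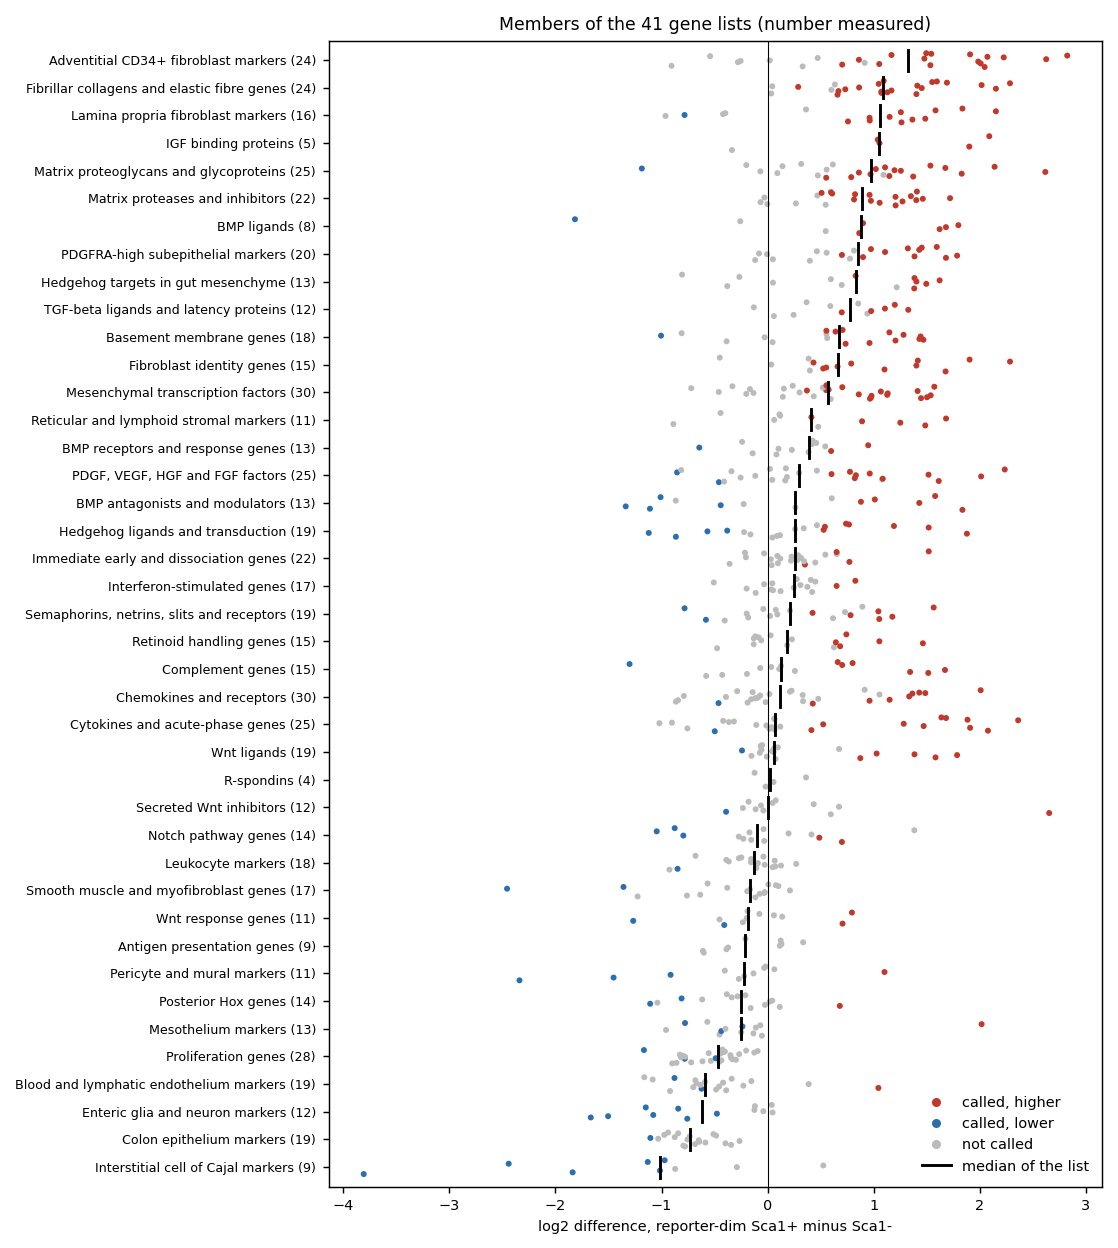
Log2 difference between reporter-dim Sca1+ and Sca1- cells (x axis) of each measured member of 41 gene lists (y axis, with the number measured), ordered by the list's median, which a bar marks. The median runs from -1.02 for interstitial cell of Cajal markers to 1.32 for adventitial CD34+ fibroblast markers, and red and blue points are called genes.

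Hedgehog targets bear on the sort, since Gli1 drives the reporter. Of 13 measured targets of gut mesenchyme, 6 were called higher and 0 lower, with a median of 0.83. Both the 13 and the 6 include Gli1 itself, whose call is not independent of the sort. With mouse as a block 9 were called higher and 1 lower, without mouse 2, 1 was called and without mouse 4, 3. Beside Gli1 the calls named by the rule were Bmp4, Foxf2, Osr1 and Wnt5a. Bmp4, a BMP ligand made by stroma under Hedgehog control, read 25773, 24867, 20278 and 22746 against 14693, 6465, 6003 and 5792 (log2 1.62 ± 0.30, adjusted p = 0.00244, and 0.0551 without mouse 2). Foxf2, a forkhead factor of gut mesenchyme, read 5130, 4362, 4260 and 5115 against 4198, 1505, 1130 and 1082 (1.50 ± 0.39, adjusted p = 0.0198). Its Sca1- array of mouse 1 was just below the lowest reporter-dim array and far above the other 3, and its adjusted p was 0.163 without mouse 2 and 0.0918 with the epithelial covariate.

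Osr1, a zinc finger factor, read 4503 to 7094 against 1598 to 4124 (log2 1.40 ± 0.25), and Wnt5a, a Wnt ligand, 2913 to 3796 against 810 to 2230 (1.38 ± 0.28). Ptch1, the receptor and a classical target, given outside the rule like the next 3 genes, did not pass without the block. It read 22764, 26766, 16395 and 26654 against 19777, 7373, 6922 and 9057 (1.22 ± 0.42, adjusted p = 0.0711, and 0.0161 with mouse as a block). Its Sca1- array of mouse 1 lay inside the reporter-dim range. Hhip, a Hedgehog-binding antagonist, read 4080, 5473, 5071 and 3536 against 10133, 6699, 4486 and 3780 (-0.38 ± 0.36, adjusted p = 0.542), and Foxf1 8872 to 11802 against 4983 to 10493 (0.70 ± 0.24, adjusted p = 0.0712). Foxl1, a marker of subepithelial telocytes, read 371 to 458 against 376 to 459 (0.05 ± 0.08, adjusted p = 0.728).

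The ligands and transduction genes of the pathway were mixed, with 7 of 19 called higher and 4 lower (median 0.26, 2 and 1 without mouse 2, 2 and 1 without mouse 4). Scube1, of the family that releases Hedgehog ligands, read 6962, 6112, 6835 and 7483 against 3268, 1879, 1783 and 1088 (log2 1.88 ± 0.23, adjusted p = 0.000153). Its relative Scube2 differed the other way, with 358 to 443 against 493 to 1778 (-1.12 ± 0.28, adjusted p = 0.0169). Gli2, the main activator of the pathway, read 4077, 4728, 4387 and 4188 against 2796, 1222, 1223 and 1260 (1.52 ± 0.22, adjusted p = 0.000454). Gpr161, a ciliary receptor that restrains the pathway, read 3747 to 7074 against 1594 to 4174 (1.19 ± 0.27). Smo and Gli3, given outside the rule, were called higher by 0.53 ± 0.14 (adjusted p = 0.0242) and 0.54 ± 0.14 (adjusted p = 0.0157). Cdon and Gas1 of the same list, chosen after their values were seen, were called lower. Their differences were -0.57 ± 0.095 (adjusted p = 0.00138) and -0.38 ± 0.11 (adjusted p = 0.0316). Boc did not pass (-0.22 ± 0.14, adjusted p = 0.316). The epithelial ligand gene Ihh, also outside the rule, read 1281 to 2065 against 1785 to 3478 (-0.87 ± 0.25, adjusted p = 0.0334, and 0.109 with the epithelial covariate).

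Promoter windows are shown for a Hedgehog target, a matrix gene and the gene with the largest fall, to set the sequence beside these values. They are RefSeq windows on GRCm38.p6 from 250 bases before to 50 after a start, printed 5' to 3' in the direction of the gene, and 451 of the 635 measured list genes had one. The Gli binding motif TGGGTGGTC, the AP-1 motif TGANTCA and the TATA box TATAAA were searched on both strands, and matches are in capitals. Bmp4 lies on chr14:46390620-46390919, minus strand, Ecm1 on chr3:95739520-95739819, minus strand, and Kit on chr5:75574737-75575036, plus strand.
Bmp4: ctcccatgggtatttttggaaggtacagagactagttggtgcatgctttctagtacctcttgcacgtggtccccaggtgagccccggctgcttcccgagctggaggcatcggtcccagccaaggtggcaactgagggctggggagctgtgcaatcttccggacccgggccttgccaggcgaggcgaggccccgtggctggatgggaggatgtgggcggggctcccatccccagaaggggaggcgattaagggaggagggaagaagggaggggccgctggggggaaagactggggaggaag
Ecm1: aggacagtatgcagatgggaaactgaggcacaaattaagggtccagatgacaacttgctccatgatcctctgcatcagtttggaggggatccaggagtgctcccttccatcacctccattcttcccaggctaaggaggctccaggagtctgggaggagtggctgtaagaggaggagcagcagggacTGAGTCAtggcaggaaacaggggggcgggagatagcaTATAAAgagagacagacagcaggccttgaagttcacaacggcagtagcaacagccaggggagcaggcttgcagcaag
Kit: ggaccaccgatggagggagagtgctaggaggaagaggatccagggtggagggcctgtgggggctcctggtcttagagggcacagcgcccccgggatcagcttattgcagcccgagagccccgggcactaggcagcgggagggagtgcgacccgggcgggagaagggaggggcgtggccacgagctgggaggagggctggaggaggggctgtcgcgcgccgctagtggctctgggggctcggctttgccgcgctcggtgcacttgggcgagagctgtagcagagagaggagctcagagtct
The Ecm1 window held an AP-1 match 64 bases and a TATA box 27 bases before the start, and those of Bmp4 and Kit held none of the 3 motifs. A Gli motif was found in windows of 0.222% of measured genes with a window, in 0 of the 5 Hedgehog targets that had one, and in 3 of 1069 higher and 0 of 777 lower calls. AP-1 matches were in windows of 9.82% of higher calls, 6.69% of lower calls and 7.65% of all measured genes, and TATA boxes in 11.1%, 10.6% and 11.8%. The windows are short, and a match is a description of the letters.

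BMP ligands gave mostly higher calls. Of 8 measured, 5 were called higher and 1 lower, with a median of 0.88 (1 and 1 without mouse 2, 2 and 1 without mouse 4). Bmp6 read 9911, 11453, 9102 and 7944 against 3954, 2521, 2645 and 2131 (log2 1.80 ± 0.21, adjusted p = 8.43e-05). Bmp5 read 14722, 14529, 12801 and 19850 against 8531, 5201, 3811 and 3043 (1.68 ± 0.32, adjusted p = 0.00313). On the signal scale these are 3.48-fold and 3.21-fold. Neither gene overlapped between populations, as was so for 1649 of the 2368 called genes. Gdf10, a divergent BMP family member, was lower, with 2078, 2190, 3071 and 1931 against 7300, 7824, 6246 and 11644 (-1.82 ± 0.24, adjusted p = 0.000294). Bmp2, given outside the rule, read 8379 to 11535 against 4840 to 8305 (0.55 ± 0.24, adjusted p = 0.149).

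The secreted antagonists of BMP split. Of 13 measured, 5 were called higher and 4 lower, with a median of 0.26 (1 and 1 without mouse 2, 2 and 1 without mouse 4). Grem1, the antagonist known at the crypt base, read 8965, 7548, 5358 and 8531 against 4882, 1742, 1485 and 1508 (log2 1.84 ± 0.34, adjusted p = 0.00271). Htra3, a secreted protease, read 10278 to 13919 against 2985 to 6295 (1.58 ± 0.17), and Fstl1 25969 to 38388 against 9110 to 22757 (1.43 ± 0.25). Chrdl1, a chordin-like antagonist, was lower with 273, 396, 388 and 393 against 2723, 623, 415 and 956 (-1.34 ± 0.39, adjusted p = 0.035). Nog, which encodes noggin and is given outside the rule, read 280 to 347 against 433 to 1953 (-1.11 ± 0.34, adjusted p = 0.041). For both of these the Sca1- array of mouse 1 was far above the other 3.

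Of 13 BMP receptors and response genes 2 were called higher and 1 lower, beside 7.96% and 5.89% of all genes (median 0.39, 0 and 0 without mouse 2 or mouse 4). Leaving out the Sca1- array of mouse 1 gave 5 and 1. The Id genes, direct BMP targets, went both ways: Id3 read 5297 to 6780 against 2429 to 5077 (log2 0.95 ± 0.20, adjusted p = 0.00562) and Id1 1316 to 2060 against 2106 to 3000 (-0.64 ± 0.17, adjusted p = 0.0225). The type I receptor gene Acvr1 read 12963 to 14787 against 7405 to 12439 (0.60 ± 0.16). With the epithelial covariate the adjusted p of Id1 was 0.104.

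Among 19 Wnt ligands, 5 were called higher and 1 lower, with a median of 0.06 and 5 at array background in both populations. Without mouse 2 or mouse 4, 3 were higher and 0 lower. Wnt4 read 6356, 5955, 5559 and 7599 against 2488, 1827, 1827 and 1362 (log2 1.79 ± 0.17, adjusted p = 1.61e-05). Wnt2b, a canonical ligand of gut stroma, read 9637, 9999, 7399 and 9603 against 4338, 2760, 3047 and 2335 (1.58 ± 0.16, adjusted p = 4.71e-05). Wnt5b read 910 to 1404 against 520 to 835 (1.03 ± 0.21). The R-spondins, which amplify Wnt signals, showed no call among 4, and Rspo3 read 662, 493, 441 and 555 against 622, 360, 409 and 320 (0.36 ± 0.21, adjusted p = 0.283). Without the Sca1- array of mouse 1, 1 R-spondin was called higher.

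Secreted Wnt inhibitors had 1 of 12 called higher, Sfrp2, and 1 lower, Sfrp5, with 486 to 542 against 623 to 733 (log2 -0.39 ± 0.07). Over all genes 7.96% were called higher and 5.89% lower. Of 11 Wnt response genes 2 were called each way (0 higher and 1 lower without mouse 2). Nkd2, an intracellular inhibitor, read 911 to 1217 against 2036 to 4506 (-1.27 ± 0.22, adjusted p = 0.0015). Axin2, a classical target, read 1146 to 1443 against 1531 to 2254 (-0.41 ± 0.12, adjusted p = 0.0371), whereas Apcdd1 read 865 to 1152 against 447 to 984 (0.79 ± 0.19). Lef1 was at array background on all Sca1- arrays, and its signal of 366 to 555 gives at least 1.31-fold higher. Axin2 and Apcdd1 did not pass with the epithelial covariate (adjusted p = 0.149 and 0.0613).

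Growth factors of vessels, epithelium and mesenchyme were called higher in 10 of 25 and lower in 2, with a median of 0.30 (5 and 0 without mouse 2, 4 and 1 without mouse 4). Hgf, a mitogen of epithelium, read 5843, 5615, 4308 and 6712 against 2521, 1271, 897 and 1246 (log2 2.01 ± 0.25, adjusted p = 0.000174). Pdgfd read 3141 to 5402 against 760 to 2737 (1.61 ± 0.32) and Fgf7, which acts on epithelium, 1181 to 2081 against 482 to 882 (1.52 ± 0.19). Kitl, the ligand of Kit and given outside the rule, was lower, with 4083, 3429, 3859 and 4920 against 8989, 6585, 5224 and 9173 (-0.85 ± 0.17, adjusted p = 0.00369). The ligand was thus on the same side as its receptor. Vegfa, also outside the rule, read 5016 to 7390 against 3882 to 6610 (0.17 ± 0.17, adjusted p = 0.569).

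TGF-beta ligands and latency proteins had 5 of 12 called higher and 0 lower, with a median of 0.78 (2 without mouse 2 or mouse 4, and 8 with the block). The calls were of receptors and latency proteins. Tgfbr3, the co-receptor betaglycan, read 18180 to 25693 against 6890 to 14199 (log2 1.33 ± 0.18), Ltbp4 36320 to 44932 against 13557 to 29177 (1.20 ± 0.20), Ltbp1 7046 to 11086 against 2723 to 8735 (1.11 ± 0.29) and Tgfbr2 25675 to 34066 against 12113 to 26295 (0.98 ± 0.22). The ligand Tgfb1, outside the rule, read 791 to 1030 against 657 to 1086 (0.06 ± 0.15, adjusted p = 0.84). Other ligand genes, chosen after their values were seen, lay higher but did not pass. They were Tgfb3 (0.94 ± 0.30, adjusted p = 0.0526), Inhba (0.85 ± 0.39, adjusted p = 0.163) and Tgfb2 (0.24 ± 0.21, adjusted p = 0.506). Of 5 IGF binding proteins 4 were called higher, with a median of 1.05 (2 without mouse 2 or mouse 4). Igfbp6 read 10107, 10678, 8410 and 6846 against 3875, 1613, 1907 and 1591 (2.09 ± 0.23, adjusted p = 6.82e-05), Igfbp3 8990 to 16596 against 2415 to 8383 (1.90 ± 0.39), Igfbp4 47079 to 54063 against 20200 to 37303 (1.05 ± 0.15) and Igfbp5 8765 to 14580 against 4260 to 12444 (1.04 ± 0.32).

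Mediators of inflammation differed gene by gene. Of 25 cytokine and acute-phase genes 10 were called higher and 1 lower, with a median of 0.06 (5 and 0 without mouse 2, 6 and 1 without mouse 4). Il6 was uneven, with 4487, 4365, 2610 and 6836 against 3389, 747, 1317 and 331 (log2 2.08 ± 0.53, adjusted p = 0.0169, and 0.166 without mouse 2). Il33, an alarmin of stroma, read 4076, 4256, 2229 and 2350 against 1998, 616, 626 and 594 (1.91 ± 0.36, adjusted p = 0.00272). Ptges, the prostaglandin E synthase that acts after Ptgs2, was steadier, with 7150, 5930, 5554 and 7307 against 2643, 1484, 1629 and 1452 (1.88 ± 0.18, adjusted p = 1.61e-05). Both enzymes of this path to prostaglandin E2 were thus called higher.

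Of 30 chemokines and receptors, 8 were called higher and 1 lower, with a median of 0.11 (4 and 0 without mouse 2, 4 and 2 without mouse 4). Ackr3, a receptor that removes Cxcl12, read 9891 to 15032 against 1586 to 7266 (log2 2.01 ± 0.32). Its ligand gene Cxcl12 read 31385, 29390, 24595 and 31501 against 20732, 8242, 9437 and 10089 (1.36 ± 0.24, adjusted p = 0.00202). Cxcl13, which draws B cells, read 3410 to 5879 against 1358 to 2717 (1.49 ± 0.31), and Cxcl14 1432 to 2259 against 481 to 1163 (1.43 ± 0.26). None of these 4, picked as the largest called differences of the list, overlapped between populations, as was so for 1649 of the 2368 called genes.

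Among lymphoid stromal genes, 5 of 11 were called higher and 0 lower (1 without mouse 2 or mouse 4). Tnfsf13b, the B cell survival factor BAFF, read 9892, 9964, 7299 and 8913 against 3888, 2219, 3032 and 2316 (log2 1.68 ± 0.18, adjusted p = 5.61e-05). The adhesion molecules Icam1 (8438 to 12555 against 3513 to 8501, 1.25 ± 0.23) and Vcam1 (1298 to 1790 against 782 to 912, 0.89 ± 0.20) were also higher. Of 15 complement genes 6 were called higher and 1 lower (4 and 1 without mouse 2). C4b read 19699 to 24518 against 4518 to 12386 (1.67 ± 0.24), and the first-component proteases C1ra (10411 to 11649 against 3207 to 6475, 1.51 ± 0.17) and C1s1 (17847 to 23042 against 6178 to 14608, 1.34 ± 0.22) moved with it. Cd59a, which blocks the terminal complex, was lower, with 1371, 1223, 1338 and 1255 against 5442, 2597, 2371 and 3105 (-1.30 ± 0.19, adjusted p = 0.000592).

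Of 17 interferon-stimulated genes 2 were called higher and 0 lower, beside 7.96% and 5.89% of all genes. Of 9 antigen presentation genes 0 were called in either direction. Gbp2 read 5092 to 5410 against 1930 to 4787 (log2 0.83 ± 0.20) and Stat2 2045 to 2541 against 1128 to 1619 (0.65 ± 0.14), and neither passed without mouse 2 (adjusted p = 0.15 and 0.0509). The antigen presentation gene with the smallest p, Psmb8, read 2722 to 4163 against 2405 to 2909 (0.33 ± 0.12, adjusted p = 0.0899). With limma, 1 of the 9 antigen presentation genes had an unadjusted p under 0.05.

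Immediate early and dissociation genes had 4 of 22 called higher and 0 lower, beside 7.96% and 5.89% of all genes. Their median was 0.25 (2 without mouse 2 and 1 without mouse 4). Leaving out the Sca1- array of mouse 1 raised the count to 9. Gadd45g, a stress sensor, read 5314, 6135, 4661 and 6847 against 3329, 1602, 2099 and 1380 (log2 1.52 ± 0.22, adjusted p = 0.000435). Junb read 9517 to 10888 against 4450 to 7866 (0.77 ± 0.14), Gadd45b 4340 to 7646 against 2867 to 4151 (0.65 ± 0.19) and Fosb 40691 to 45316 against 29890 to 39850 (0.35 ± 0.09). Fos, outside the rule, was near its top signal in both, with 71556 to 79064 against 66959 to 83066 (0.04 ± 0.07, adjusted p = 0.796). The part of the response to dissociation in the other differences was not tested.

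Mesenchymal transcription factors were called higher in 17 of 30 and lower in 0, with a median of 0.56 (8 and 6 without mouse 2 and mouse 4, and 10 with the epithelial covariate). Isl1, a LIM homeodomain factor, read 4324, 5123, 3971 and 5157 against 2434, 1508, 1433 and 1107 (log2 1.57 ± 0.22, adjusted p = 0.000428). Prrx2 read 1104 to 1732 against 380 to 594 (1.54 ± 0.17), Ebf1 1651 to 2313 against 533 to 1315 (1.50 ± 0.22) and Tcf21, a factor of fibroblast lineages, 13517 to 20430 against 3940 to 11773 (1.45 ± 0.31). The 14 posterior Hox genes, which record position along the gut, gave 1 higher and 2 lower calls, beside 7.96% and 5.89% of all genes. Their median was -0.25 (0 and 0 calls without mouse 2 or mouse 4). Hoxb9 read 363 to 734 against 712 to 1320 (-1.11 ± 0.22), Hoxd9 1457 to 2597 against 2762 to 4052 (-0.81 ± 0.18) and Hoxa11 1947 to 2847 against 1153 to 2292 (0.68 ± 0.19).

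Retinoid handling genes were called higher in 5 of 15 and lower in 0, with a median of 0.18 (2 without mouse 2 or mouse 4). Aldh1a2, which makes retinoic acid, read 8211, 8149, 6359 and 6889 against 4863, 2493, 2272 and 1841 (log2 1.46 ± 0.26, adjusted p = 0.0018). Rbp4, a retinol carrier, read 7235 to 9629 against 2744 to 5852 (1.05 ± 0.24), Rarg 2064 to 2540 against 1072 to 1897 (0.74 ± 0.15) and Rdh10 2804 to 4428 against 2008 to 2331 (0.68 ± 0.16). The synthesis steps of Rdh10 and Aldh1a2 were thus both called higher. Guidance genes gave 6 higher and 2 lower calls of 19 (2 and 1 without mouse 2, 1 and 1 without mouse 4). Robo1, a Slit receptor, read 3455 to 4797 against 1121 to 2638 (1.56 ± 0.28), Sema3f 1392 to 1822 against 530 to 1006 (1.18 ± 0.20), Sema3c 10416 to 17890 against 4634 to 10623 (1.05 ± 0.24) and Ntn4 2389 to 4534 against 1057 to 2530 (1.04 ± 0.24).

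Notch genes gave 2 higher and 3 lower calls of 14, beside 7.96% and 5.89% of all genes (1 and 0 without mouse 2, 0 and 1 without mouse 4). The targets Heyl, known in mural cells, and Nrarp were lower, with 1162 to 1416 against 1717 to 3708 (log2 -1.05 ± 0.30, adjusted p = 0.0328) and 684 to 1251 against 1226 to 1974 (-0.88 ± 0.21, adjusted p = 0.0136). Notch4, a receptor of endothelium, read 492 to 755 against 934 to 1163 (-0.80 ± 0.17), and the ligand Dll1 1336 to 2312 against 826 to 1165 (0.70 ± 0.16). The call of Heyl was lost without the Sca1- array of mouse 1 (adjusted p = 0.0559).

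Interstitial cell of Cajal markers were the list furthest on the Sca1- side, with 6 of 9 called lower, 0 higher and a median of -1.02. Without mouse 2 and with the epithelial covariate 6 were called lower, and without mouse 4, 5. The mean log2 signal of the list was 10.98, 11.05, 11.10 and 11.33 in reporter-dim and 12.59, 12.35, 12.17 and 12.61 in Sca1- cells, with no overlap. Beside Kit and Prkcq, Ano1, the chloride channel of pacemaker activity, read 3201, 3736, 5350 and 6819 against 18015, 13960, 13884 and 20441 (log2 -1.84 ± 0.21, adjusted p = 8.83e-05). Elovl6, a fatty acid elongase, read 3088 to 3841 against 6269 to 8868 (-1.13 ± 0.16), and Etv1, a factor of this lineage given outside the rule, 912 to 1329 against 1949 to 2798 (-1.02 ± 0.25, adjusted p = 0.0142). In bulk samples such as these, fewer cells of a type and less RNA per cell cannot be told apart.

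Mural cell markers were lower for some genes and not for others, with 3 of 11 called lower and 1 higher, beside 5.89% and 7.96% of all genes. Their median was -0.22 (1 and 1 without mouse 2 or mouse 4). Rgs5, a regulator of G protein signalling typical of pericytes, read 6016, 6015, 5144 and 9256 against 43305, 32743, 21047 and 37880 (log2 -2.34 ± 0.29, adjusted p = 0.000143). The channel gene Kcnj8 read 376 to 446 against 700 to 3282 (-1.45 ± 0.42, adjusted p = 0.0334) and Mcam 928 to 1181 against 1330 to 4609 (-0.92 ± 0.29, adjusted p = 0.0484). Pdgfrb, which fibroblasts share with pericytes, was higher, with 3489 to 4885 against 1531 to 2776 (1.10 ± 0.16, adjusted p = 0.00058). Notch3, outside the rule, read 1372 to 1944 against 1633 to 2378 (-0.27 ± 0.14, adjusted p = 0.231).

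Smooth muscle genes were called lower in 2 of 17, Pcp4 and Itga8, and higher in 0, beside 5.89% and 7.96% of all genes. Their median was -0.17 (1 lower without mouse 2 or mouse 4). Itga8 read 258 to 351 against 564 to 1016 (log2 -1.36 ± 0.29, adjusted p = 0.00641). The contractile genes, outside the rule, did not pass: Acta2 read 12875, 11877, 13922 and 13304 against 25020, 13320, 11775 and 9953 (-0.12 ± 0.31, adjusted p = 0.853), Myh11 13669 to 16725 against 19859 to 48464 (-0.76 ± 0.32, adjusted p = 0.127) and Des 426 to 542 against 442 to 669 (-0.03 ± 0.12, adjusted p = 0.895). The Sca1- array of mouse 1 had the highest signal for each of these 3 genes, and without it the median of the list was 0.04.

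Enteric glia and neuron markers were called lower in 7 of 12 and higher in 0, with a median of -0.62 (3 without mouse 2, 5 without mouse 4). S100b, a glial gene, read 237, 220, 257 and 233, at array background on all reporter-dim arrays, against 1264, 653, 532 and 724, which gives at least 2.28-fold lower in reporter-dim cells (adjusted p = 8.36e-05). Gfap read 424 to 655 against 980 to 2765 (log2 -1.50 ± 0.26), Erbb3, which epithelium also makes, 3874 to 6168 against 8114 to 12921 (-1.08 ± 0.29) and Sox10, the glial factor given outside the rule, 1288 to 1551 against 1895 to 3687 (-0.76 ± 0.16). Snap25, a neuronal gene at array background in reporter-dim cells, read 176 to 218 against 263 to 599, at least 1.28-fold lower.

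**Figure D4:**
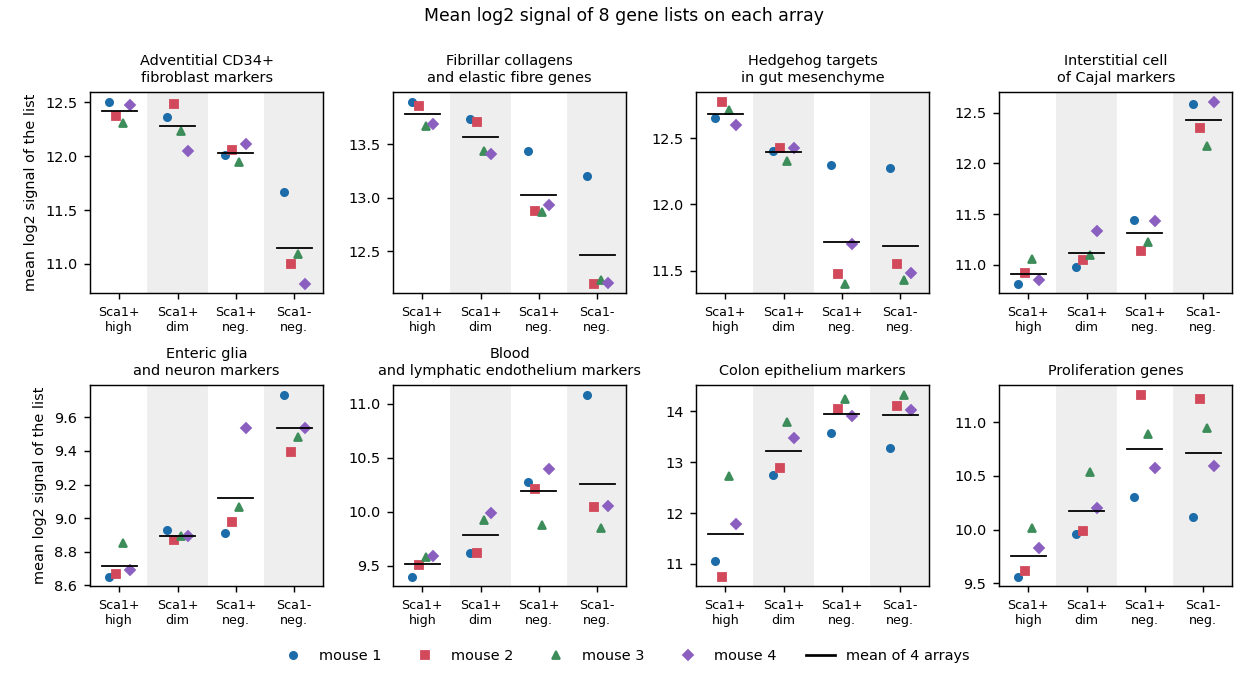
Mean log2 signal of the measured members of 8 gene lists (y axis) on each array of the 4 sorted populations (x axis), with 1 point per mouse and a bar at the mean of 4 arrays; grey bands mark the compared populations. The interstitial cell of Cajal list is at 10.98 to 11.33 in reporter-dim and 12.17 to 12.61 in Sca1- cells, and the Sca1- array of mouse 1 is apart from the other 3 in the Hedgehog, collagen and endothelial lists.

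Endothelial markers had 2 of 19 called lower and 1 higher, beside 5.89% and 7.96% of all genes. Their median was -0.59, and -0.29 without the Sca1- array of mouse 1. The list mean of that array was 11.08 against 9.85 to 10.05 on the other 3 and 9.62 to 9.99 in reporter-dim cells. Flt4, a receptor of lymphatic vessels, read 842 to 1308 against 1377 to 3185 (log2 -0.88 ± 0.20, adjusted p = 0.0102) and Flt1 1003 to 2000 against 2126 to 2679 (-0.62 ± 0.19, adjusted p = 0.0366). Tek, a receptor gene, was higher, with 2351, 3103, 2912 and 2015 against 2478, 1009, 979 and 968 (1.04 ± 0.28, adjusted p = 0.024). Without mouse 2 none of these 3 passed, and Flt1 did not pass without the Sca1- array of mouse 1 (adjusted p = 0.054). Cdh5, a defining endothelial gene outside the rule, read 341 to 444 against 415 to 842 (-0.39 ± 0.22, adjusted p = 0.27), and endothelial RNA was measured in both populations.

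Leukocyte markers gave 1 call of 18, a lower one, beside 5.89% of all genes called lower. It was Cd52, with 371 to 581 against 572 to 1404 (log2 -0.85 ± 0.22, adjusted p = 0.019, and 0.0814 with the epithelial covariate). Mesothelial markers gave 3 lower calls and 1 higher of 13, beside 5.89% and 7.96% of all genes. The higher one was the fibulin gene Efemp1. No leukocyte call and no lower mesothelial call was left without mouse 2, without mouse 4, with the epithelial covariate or with scaling to hybridisation controls. Cldn15, which epithelium also makes, read 1216 to 2061 against 1901 to 3229 (-0.78 ± 0.20). Lrrn4 read 242 to 260, at array background, against 312 to 354, at least 1.03-fold lower, and Muc16 170 to 197 against 197 to 228, at background in both. The defining gene Msln, outside the rule, was at 203 to 244 against 218 to 262 (-0.05 ± 0.11, adjusted p = 0.807), below the highest control on every array.

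Epithelial markers differed in 1 direction but gave 1 call, a lower one, beside 5.89% of all genes called lower. Of 19 measured, 1 was called lower, Cdx2, with 1889, 2210, 3876 and 2077 against 2895, 6340, 6202 and 6330 (log2 -1.11 ± 0.34, adjusted p = 0.0402). Without the Sca1- array of mouse 1, which was the lowest for Cdx2, 4 were called lower. Over all arrays the median was -0.74, all 19 differences were below 0, and 9 were called lower with mouse as a block but 0 without mouse 2 or mouse 4 and 0 when arrays were scaled to hybridisation controls. Krt8, given outside the rule, read 27016 to 42417 against 35652 to 48839 (-0.34 ± 0.33, adjusted p = 0.547) and Cdh1 9084 to 20912 against 14625 to 32423 (-0.79 ± 0.43, adjusted p = 0.248). Markers of a cell type that the gate excludes were thus bright in both populations.

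Proliferation genes lay on the same side as epithelium, with all 28 differences below 0. Of these, 3 were called lower and 0 higher, beside 5.89% and 7.96% of all genes, with a median of -0.47. Lower calls numbered 15 with mouse as a block and 14 without the Sca1- array of mouse 1. They numbered 0 without mouse 2 or mouse 4, 0 with the epithelial covariate and 0 with scaling to hybridisation controls. Cenpf, a kinetochore gene, read 446, 310, 807 and 454 against 642, 1665, 1241 and 969 (log2 -1.17 ± 0.34, adjusted p = 0.0348). The mitotic kinases Plk1 (1978 to 2635 against 2514 to 4748, -0.78 ± 0.23) and Aurka (1067 to 1468 against 1414 to 2091, -0.49 ± 0.14) also overlapped. Mki67, outside the rule, read 1550, 1479, 2696 and 2240 against 2083, 5373, 4342 and 3454 (-0.90 ± 0.35, adjusted p = 0.102). Whether these transcripts came from stromal or epithelial cells was not tested.

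Leaving out the Sca1- array of mouse 1 changed the counts of most lists. Higher and lower calls then numbered 9 and 1 for Hedgehog targets, 10 and 4 for Hedgehog ligands and transduction, 6 and 3 for BMP antagonists, 6 and 1 for Wnt ligands, 3 and 2 for secreted Wnt inhibitors, 2 and 3 for Wnt response genes and 7 and 0 for TGF-beta genes. They numbered 16 and 2 for adventitial, 13 and 0 for PDGFRA-high and 12 and 2 for lamina propria markers, and 12 and 1 for fibroblast identity genes. Among matrix genes they were 22 and 0 for collagens and elastic fibres, 13 and 2 for basement membranes, 16 and 1 for proteoglycans and 17 and 0 for proteases. They were 19 and 2 for transcription factors, 1 and 4 for Hox genes, 10 and 4 for chemokines, 11 and 1 for growth factors, 3 and 0 for interferon-stimulated genes, 6 and 1 for retinoid genes, 9 and 1 for guidance genes, 4 and 2 for Notch genes and 6 and 0 for lymphoid stromal genes. Of the other cell types, Cajal cell markers had 1 and 7, endothelial markers 2 and 1 and mesothelial markers 1 and 4. BMP ligand, IGF binding protein, cytokine, complement, antigen presentation, smooth muscle, mural, glial and leukocyte lists kept their numbers of calls.

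The 2 Sca1+ populations with and without dim reporter show how the differences are placed between the extremes. These comparisons share arrays with the one above, so values are only set side by side. Between reporter-dim and Sca1+ reporter-negative cells 258 genes were called (1.51%), and between Sca1+ and Sca1- reporter-negative cells 419 (2.45%). For Gli1 the first difference was 1.10 ± 0.21 (adjusted p = 0.0257) and the second 0.28 ± 0.21 (adjusted p = 0.715), with signals of 1545, 889, 1013 and 968 in Sca1+ reporter-negative cells. Bmp6 was placed likewise, at 1.70 (adjusted p = 0.00158) and 0.10 (adjusted p = 0.95), as were Wnt2b at 1.22 (adjusted p = 0.0027) and 0.37 (adjusted p = 0.391) and Osr1 at 1.21 (adjusted p = 0.04) and 0.20 (adjusted p = 0.89). For these 4 genes the called step lay between the Sca1+ populations.

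Many of the largest differences had the other placement. Pcolce2 differed by 0.25 (adjusted p = 0.449) between the Sca1+ populations and by 2.38 (adjusted p = 2.8e-06) between the reporter-negative ones. Scara5 differed by 0.28 (adjusted p = 0.635) and 2.55 (adjusted p = 0.000135), Gfpt2 by 0.13 (adjusted p = 0.795) and 2.10 (adjusted p = 7.66e-05), and Il33 by -0.03 (adjusted p = 0.983) and 1.93 (adjusted p = 0.0067). Among the falls, Kcna1 differed by -0.41 (adjusted p = 0.461) and -3.26 (adjusted p = 2.13e-05), Prkcq by -0.02 (adjusted p = 0.949) and -2.42 (adjusted p = 2.52e-07), and Rgs5 by -0.16 (adjusted p = 0.807) and -2.18 (adjusted p = 0.000485). Their called step lay between Sca1+ and Sca1- cells of the same reporter state. Wnt4 was called at both steps, by 0.89 (adjusted p = 0.0259) and 0.90 (adjusted p = 0.00695), and so was Kit, by -1.03 (adjusted p = 0.0427) and -2.78 (adjusted p = 8.7e-06). Whether the steps of a gene differ from each other was not tested.

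**Figure D5:**
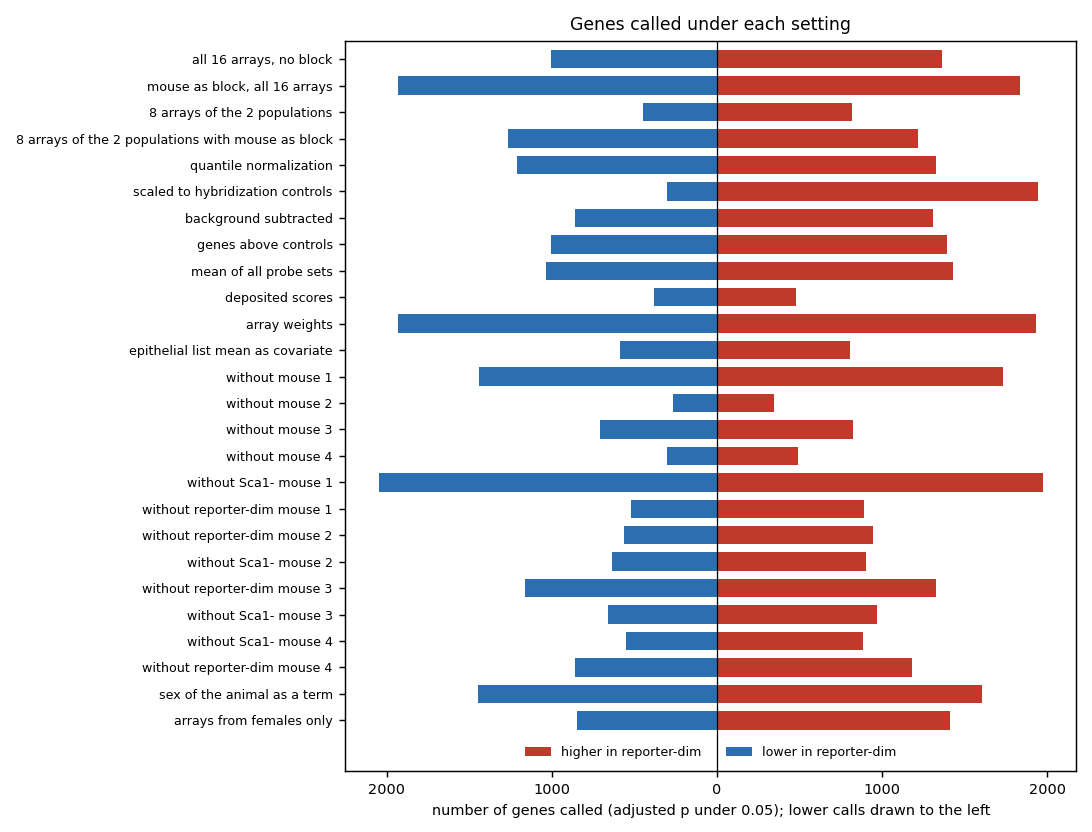
Number of genes called higher (right) and lower (left) in reporter-dim Sca1+ than in Sca1- cells (x axis) in the fit of all 16 arrays without a block and under 25 alternatives (y axis). The total runs from 614 without mouse 2 to 4025 without the Sca1- array of mouse 1.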

How the data were processed

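Colon cells of 4 sorted populations from 4 numbered mice were measured on 16 Affymetrix arrays, 1 per sample. Per the submitters' processing notes, the software was Affymetrix Expression Console 1.1. The deposited table holds a score per probe set and array: the value minus the probe set's mean over 16 arrays, divided by its SD, as the values show. Since the scores of a probe set come from whole-number signals, these were recovered for 45141 of 45141 probe sets (signals 58 to 155937, with recomputed scores within 1e-09) and for 1000 of 1000 simulated ones. Of the probe sets, 28898 had 1 gene symbol, 551 several and 15588 none, and 104 were controls. For each of 17097 genes the probe set with the highest mean was used. Log2 signals, as the authors scaled them, were fitted with limma 3.58.1 in R 4.3.3 (group means of 4 populations, all 16 arrays, no block, Benjamini-Hochberg over 17097 genes, threshold 0.05). The design had assumed deposited log2 values. Tested on simulated data for this comparison over 17097 genes, the fit called 93 of 100 genes changed by 1 log2 unit and 99 of 100 changed by 2, with 12 false calls. The simulated noise was normal, independent between genes and equal in spread in all populations. It held no array that stood apart and no difference of sex, so these counts are not error rates for the real arrays. Tables and plots were made in Python 3.11.15 with numpy 2.4.6, pandas 2.3.3, numba 0.67.0 and matplotlib 3.10.9.

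The named genes are the 5 genes of the sort, the 12 largest rises and falls called in the same direction in every mouse, and up to 4 called members of each of 41 lists with the largest difference; others are said to be outside the rule. The lists hold 705 genes, 635 measured. Members and lists were chosen with earlier results of these data known. "At least" folds set a gene at or below the highest nonspecific control on all 4 arrays of a population against that control. The mouse numbers pair the samples by the labels. Deviations of same-numbered arrays correlated by 0.51, -0.43, 0.42 and 0.01 for mice 1 to 4. Arrays with different numbers correlated by -0.54 to 0.48, so these values do not single out the pairs. The 0.48 was between reporter-dim mouse 3 and Sca1- mouse 2. Nothing says that mice were sorted on separate days, and array number limits the precision. Sex was added as a term, and females taken alone, after seeing the data.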

Additional observations from a re-analysis of the deposited data

Results flagged for a closer look

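In 364 groups of 4 arrays, 1 array stood apart from the other 3 in 42, where the gap to its nearest neighbour divided by the range of the 4 log2 signals was above Dixon's 95% critical value. Chance alone gives about 1 in 20 such groups. The Sca1- array of mouse 1 was the one apart in 31 of the 42. Its signal was above the other 3 for Pdpn (0.9423), Gabra3 (0.8309), Scara3 (0.8573), Slc35f1 (0.9143), Bmp4 (0.8819), Osr1 (0.832), Gli2 (0.963), Grem1 (0.8659), Fstl1 (0.9127), Wnt5b (0.8473), Apcdd1 (0.8329), Tgfbr3 (0.8651), Tgfbr2 (0.9371) and Igfbp4 (0.9445). It was likewise above them for Igfbp5 (0.9269), Lox (0.8412), Lama2 (0.8527), Col15a1 (0.8423), Serpinf1 (0.8658), Ebf1 (0.8913), Il33 (0.9567), C1ra (0.8965), C1s1 (0.8704), Robo1 (0.8963), Mcam (0.8763), Tek (0.9559), Icam1 (0.9441) and Nog (0.9098). The mean over the endothelial list was also highest on this array (0.8368). Means of other lists, not counted among the 42, were highest there too. Examples, which were not among the 364 groups set against the critical value, are collagens and elastic fibres (13.21 against 12.20 to 12.24) and BMP ligands (12.13 against 11.57 to 11.61). This did not hold for every list, and the epithelial mean was lowest there (13.29 against 14.03 to 14.33). The signal of this array was below the other 3 Sca1- arrays for Cdx2 (0.9719) and Dpp4 (0.8478). Among reporter-dim arrays, mouse 4 was the highest for Gfra1 (0.8968), Wnt5a (0.8863), Col4a6 (0.9775) and Gadd45b (0.9107). Among reporter-dim arrays, mouse 1 was the lowest for Chrdl1 (0.9451) and Junb (0.9672). Among reporter-dim arrays, mouse 3 was the lowest for Wnt2b (0.8658), Wnt5b (0.8472) and Fosb (0.956). Among reporter-dim arrays, mouse 1 was the highest for C4b (0.9134). Among reporter-dim arrays, mouse 3 was the highest for Cldn15 (0.8416). The part of animal, sex, cell content and array in these values was not tested.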

How the results depend on the processing

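The number of calls, 2368 with 561 by 2-fold or more, changed more with the arrays included than with scaling. Scaling to hybridisation controls gave 2250 calls, but 1945 were higher and 305 lower, against 1361 and 1007. Of these 2250, 1651 were among the 2368. Calls numbered 3769 with mouse as a block (the replicate block), 1266 from the 8 arrays alone, 860 on the deposited scores, 3865 with array weights (858 by 2-fold) and 1395 with the epithelial mean as a covariate (339 by 2-fold). Leaving out mice or single arrays gave 614 to 4025 calls and 283 to 983 by 2-fold. The lowest were without mouse 2 (614), mouse 4 (789), the reporter-dim array of mouse 1 (1409), the Sca1- array of mouse 4 (1435), the reporter-dim and Sca1- arrays of mouse 2 (1506 and 1542) and mouse 3 (1529), and the highest without the Sca1- array of mouse 1 (4025). With sex as a term 3052 were called, and among females 2253. Without mouse 1 the count was 3173. The cause of these changes was not tested, and fits that leave arrays out also rest on fewer arrays. Of 153 named genes called, 75 lost the call without mouse 2, 68 without mouse 4, 30 in the 8 arrays, 29 with the epithelial covariate, 15 when scaled to hybridisation controls, 16 among females and 0 with mouse as a block. None reversed in any of these alternatives. Signals at or below the highest control on all 8 arrays, those of 2795 genes, set a floor under which differences could not be read.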
